A study of Danio rerio with 4 samples.

Results

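Remote DN-Specific peaks are H3K4me3 peaks of the DN list that overlap no Ctrl peak and lie 50 kb or more from the nearest one. They were chosen among peaks on chromosomes 1 to 25 that are under 3000 bp wide, and chromosome 4 from 27000000 on was left out. This rule selected 3843 of the 34889 DN peaks, which is 11.01% (95% exact binomial interval 10.7 to 11.3, counting error only). The members were thus chosen by their absence from the Ctrl list and by their distance from it. Of all DN peaks, 68.5% overlapped no Ctrl peak, and the members are a subset of those by construction.

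The peak lists come from ventricles of adult zebrafish at 7 days post-amputation (dpa). DN hearts carried the transgene *ubi:loxp-DsRed-STOP-loxp-DN-xBrg1* together with *kdrl:CreER*, so that 4-hydroxytamoxifen (4-HT) switches on a dominant-negative *Xenopus* Brg1 in cells that express the endothelial *kdrl* driver. Ctrl hearts carried the same *ubi:loxp-DsRed-STOP-loxp-DN-xBrg1* transgene without the Cre driver. Fish of either genotype were given 4-HT ahead of the amputation. The paper describes this in one place as 3 days of 4-HT before surgery. In another it describes a shorter bath, with surgery 3 days after the treatment. Chromatin came from whole ventricles, with the outflow tract and atrium removed, so endothelial cells gave only part of it, and fewer marked cells cannot be told apart from less mark per cell. A ChIP pooled about 25 hearts, and each group has 1 H3K4me3 library, so no difference given here has a replicate check and no p-value is given. Each group also has 1 input library, which was not analysed here. No gene annotation or sequence of the GRCz11 assembly was used, so peaks are described by position and the cardiac or endothelial identity of the chromatin was not checked against marker genes.

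H3K4me3 is the trimethylated form of lysine 4 on histone H3. It is laid down by methyltransferases of the MLL/COMPASS family and removed by lysine demethylases, and it marks the nucleosomes that flank the start sites of active genes. It is therefore dense where promoters are dense and sparse in long stretches of the genome without active promoters. Brg1 is the ATPase of the SWI/SNF complex, which slides and evicts nucleosomes. Peaks far from any Ctrl peak are thus peaks in stretches where the control chromatin had no listed mark.

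The first question was how common such peaks are and whether the Ctrl list holds the same kind. With the lists exchanged, 741 Ctrl-Specific peaks lay 50 kb or more from the nearest DN peak, so the ratio of remote DN-Specific to remote Ctrl-Specific peaks was 5.19 (95% interval 4.79 to 5.62, counting error only). Of all Ctrl peaks, 33.0% overlapped no DN peak. Each of the 25 chromosomes held more remote DN-Specific than remote Ctrl-Specific peaks. The DN list is longer than the Ctrl list of 17234 peaks, which both adds DN peaks and leaves less room for remote Ctrl peaks. Sequence 50 kb or more from every Ctrl peak came to 583 Mb, or 45.0% of the 1293 Mb searched, and sequence that far from every DN peak came to 418 Mb. Per Mb of that sequence there were 6.60 remote DN-Specific peaks (95% Poisson interval 6.39 to 6.81) and 1.77 remote Ctrl-Specific peaks (95% interval 1.65 to 1.90).

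The size of this ratio depended on how weak a peak was allowed to be. The depth of a peak, meaning the mean number of ChIP fragments stacked over it, was worked out from the fold over the genome-wide background that the peak caller gives. The estimate for Ctrl includes a scaling of the depth that was inferred from the list and is not stated in the sources used here, and the comparisons at a set depth rest on it. By this estimate the lowest depth listed was 7 fragments in DN and 8 in Ctrl. Of the remote DN-Specific peaks, 2054 (53.4%) lay under 8 fragments, a range in which the Ctrl list has no peak at all. The other 1789 (46.6%, 95% interval 45.0 to 48.1) had 8 fragments or more, against 56.0% of all DN peaks. When both lists were limited to peaks of at least 8 fragments, 1789 remote DN-Specific and 1374 remote Ctrl-Specific peaks remained, and the ratio was 1.30 (95% interval 1.21 to 1.40). Their densities were 3.07 per Mb for DN and 2.48 per Mb for Ctrl. This cut removed DN peaks only, since all 17234 Ctrl peaks reached it. It acts on the mean over a peak, and DN peaks can include flanks of 7 fragments. A DN peak with a core of 8 or more can thus average under 8, so the cut is not equal in both lists. The ratio was 1.85 at a minimum of 9 fragments (1828 and 986 peaks), 3.01 at 10 fragments (2064 and 686 peaks) and 8.21 at 12 fragments (2314 and 282 peaks). These filters also remove peaks of the opposite list, so that other peaks count as remote, and the sets compared differ from step to step. Among the peaks that were remote in the unfiltered lists, 465 DN-Specific peaks (12.1%, 95% interval 11.1 to 13.2) and 149 Ctrl-Specific peaks (20.1%, 17.3 to 23.2) reached 10 fragments, against 25.6% of all DN and 37.6% of all Ctrl peaks. By share of all remote peaks, those of this depth were thus less frequent in DN than in Ctrl, although there were more of them. The DN shares count peaks under 8 fragments (2054 of the remote ones), a range the Ctrl list lacks. Among remote peaks of at least 8 fragments, 465 of 1789 reached 10 in DN and 149 of 741 in Ctrl. On that range of mean depth, which the lists reach from different lowest depths, the order by share was reversed. At 14 fragments or more there were 30 remote DN-Specific peaks (0.781%, against 7.11% of all DN peaks) and 0 of 741 remote Ctrl-Specific peaks, which allows a share of up to 0.405% by the limit of 3 counts and 0.497% by the exact interval.

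DN-Specific peaks thinned out with distance from Ctrl peaks, and this went on beyond 50 kb. Their density was 49.95 per Mb within 10 kb of a Ctrl peak (11599 peaks) and 16.7 per Mb from 10 to 50 kb (7823 peaks). Among the members it was 8.82 per Mb from 50 to 100 kb (95% interval 8.46 to 9.19), 5.47 from 100 to 200 kb (5.16 to 5.80), 4.01 from 200 to 400 kb (3.63 to 4.43) and 1.79 beyond that (1.25 to 2.50, 35 peaks). The density fell over these 4 bands, so members of this library were denser nearer to Ctrl peaks. The intervals do not overlap, but they treat members as independent. In fact 37.0% of members had another member within 10 kb, so the intervals are too narrow to serve as a test. The bands pool Ctrl-free stretches of different lengths, and position within a stretch was not measured. The same order held for peaks of at least 8 fragments, with 4.01, 2.699, 1.81 and 0.820 per Mb in those bands. Remote Ctrl-Specific peaks had 2.09, 1.45, 1.39 and 1.55 per Mb at these distances from DN peaks, and the last 3 of these values have overlapping intervals.

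**Figure D1:**
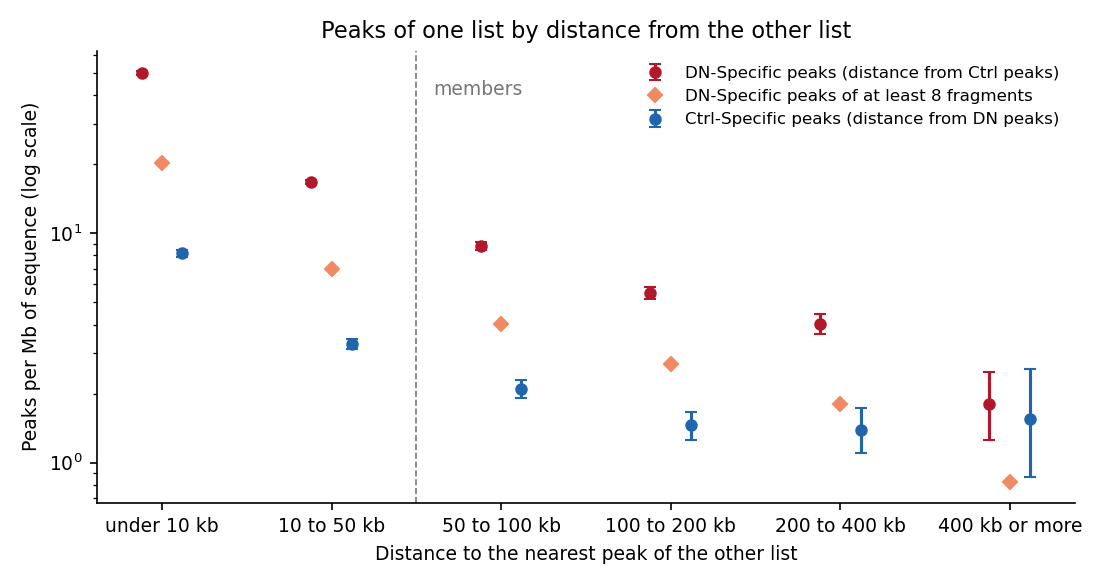
Peaks per Mb of sequence (log scale) in bands of distance from the nearest peak of the other list. Red points are DN-Specific peaks, orange diamonds those of at least 8 fragments and blue points Ctrl-Specific peaks, with bars for 95% Poisson intervals (no bars are drawn for the diamonds); to the right of the dashed line lie the members, whose density falls from band to band while the Ctrl-Specific values level off.

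Most members lay at the nearer distances, where much of the remote sequence also lies, 260 of the 583 Mb at 50 to 100 kb. Members lay a median of 87.7 kb from a Ctrl peak (quartiles 65.1 and 133 kb). Of the members, 2292 (59.6%) lay 50 to 100 kb away, 1123 (29.2%) 100 to 200 kb away and 428 (11.1%) farther. The farthest lay on chromosome 17 from 18796462 to 18797173, 676 kb from any Ctrl peak, with a fold of 4.25, a −log10 q of 4.04 and no other DN peak within 100 kb. Both of the next farthest were on chromosome 18, from 10052219 to 10052643 (641 kb, fold 2.98, −log10 q 1.49) and from 11715885 to 11716949 (610 kb, fold 4.33, −log10 q 4.14). The 3 farthest thus included weak and stronger members. The rule's limit fell inside a continuous range. Just inside it were members on chromosome 6 from 48022043 to 48022844 (50.001 kb, fold 4.46), chromosome 3 from 422197 to 422396 (50.002 kb, fold 2.96) and chromosome 2 from 58970302 to 58970951 (50.03 kb, fold 3.26). Just outside were peaks on chromosome 15 from 20232360 to 20233043 (49.99 kb, fold 3.10), chromosome 3 from 37197990 to 37198298 (49.98 kb, fold 2.97) and chromosome 13 from 32847951 to 32848150 (49.97 kb, fold 3.21).

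The stretches without a Ctrl peak were then taken one by one. There were 3759 of them of 100 kb or more between neighbouring Ctrl peaks, and 1687 (44.9%) held at least 1 member, while 698 held no DN peak of any kind. Longer stretches held a member more often, in 17.8% of those of 100 to 150 kb and in 33 of 37 of those of 1 Mb or more. The number of members per Mb of eligible sequence went the other way, with 11.8 in stretches of 100 to 150 kb and 3.76 in those of 1 Mb or more. In all, 788 stretches held a single member and 161 held 5 or more. The fullest was on chromosome 22 from 5407936 to 5821110, with 22 members and a highest −log10 q of 3.95. It was followed by chromosome 11 from 45000374 to 45255775 with 19 members and chromosome 8 from 16613303 to 17079906 with 16. The longest stretch, on chromosome 19 from 38236078 to 40026065, held 11 members, the highest with a −log10 q of 2.43.

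**Figure D2:**
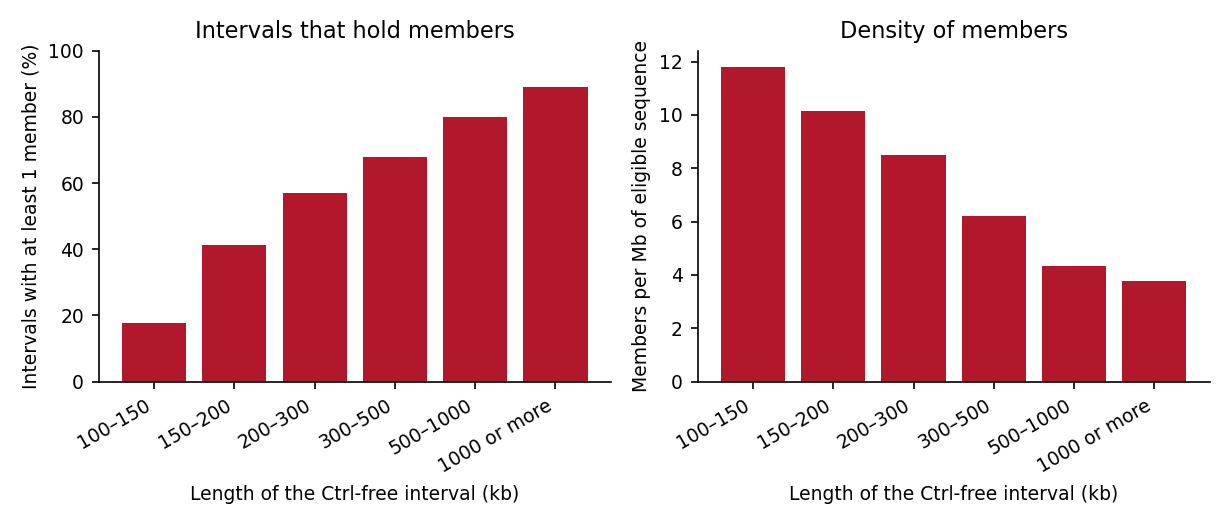
Stretches of 100 kb or more between neighbouring Ctrl peaks, grouped by length (kb). The left bars give the share of stretches with at least 1 member, 17.8% for the shortest group, and the right bars the members per Mb of sequence that is 50 kb or more from both ends, 11.8 for the shortest group and 3.76 for the longest.

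Remote peaks were mainly isolated. With a cluster defined as members at most 10 kb apart, 2422 members (63.0%, 95% interval 61.5 to 64.6) stood alone and 1421 (37.0%) fell into 571 clusters. The clustered share was 24.8% when only peaks of at least 8 fragments were counted and 3.99% when only those with a −log10 q of 4 or more were. These filters also remove neighbours. With all members kept as neighbours, 129 of the 276 members with a −log10 q of 4 or more were clustered, or 46.7%. Of the isolated members, 66 had another DN peak within 10 kb, a number that the rule itself keeps low. A DN peak that near is a member too unless it falls outside the rule's limits of distance, width or chromosome 4. Of all members, 1184 (30.8%) had no DN peak of any kind within 50 kb. Clusters were small. Pairs made up 413 of them, 98 had 3 members, 30 had 4 and 30 had 5 or more. Their median span was 5269 bp, and neighbours were a median of 2440 bp apart, with none closer than 602 bp. Clustered members were wider than isolated ones, with a median of 473 bp (95% interval 456 to 502) against 408 bp (391 to 425). They were also stronger, since 9.08% of clustered members (95% interval 7.63 to 10.7) and 6.07% of isolated members (5.15 to 7.10) had a −log10 q of at least 4, the level of a q-value of 0.0001. Of the 571 clusters, 122 held at least 1 member listed at that level and 6 held 2 or more, so most clusters had no member listed there. The clustered share was 38.5% for members 50 to 100 kb from a Ctrl peak, 37.0% from 100 to 200 kb and 28.5% beyond that.

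The largest cluster lay on chromosome 11 from 45138393 to 45198901. It held 17 members over 60509 bp, which together covered 16.3% of the span. Their widths ran from 200 to 1184 bp with a median of 557 bp, their folds from 2.98 to 3.80 and their −log10 q from 1.498 to 2.98. Their percentiles by −log10 q among all DN peaks ran from 20.1 to 70.2. None of the 17 had a −log10 q of 4 or more, and 8 of them lay under 8 fragments. The right end of this cluster is set by the rule. More DN peaks followed there, the first from 38.6 to 39.4 kb past the middle of the cluster. That peak lay under 50 kb from a Ctrl peak and so was not a member. The stretch around the cluster held 28 DN peaks of any kind. Next came 3 clusters of 8 members, on chromosome 8 from 16719100 to 16739726 (fold 2.92 to 4.31), chromosome 1 from 9858298 to 9885280 (fold 2.87 to 4.02) and chromosome 6 from 49509780 to 49532728 (fold 2.88 to 3.60). The cluster on chromosome 6 was the most densely covered of these, with 37.5% of its 22949 bp inside members. A cluster of 7 on chromosome 17 from 45364710 to 45396449 held 3 members at a −log10 q of at least 4, the highest at 6.78. No other cluster of 7 or more members held more than 1 at that level.

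**Figure D3:**
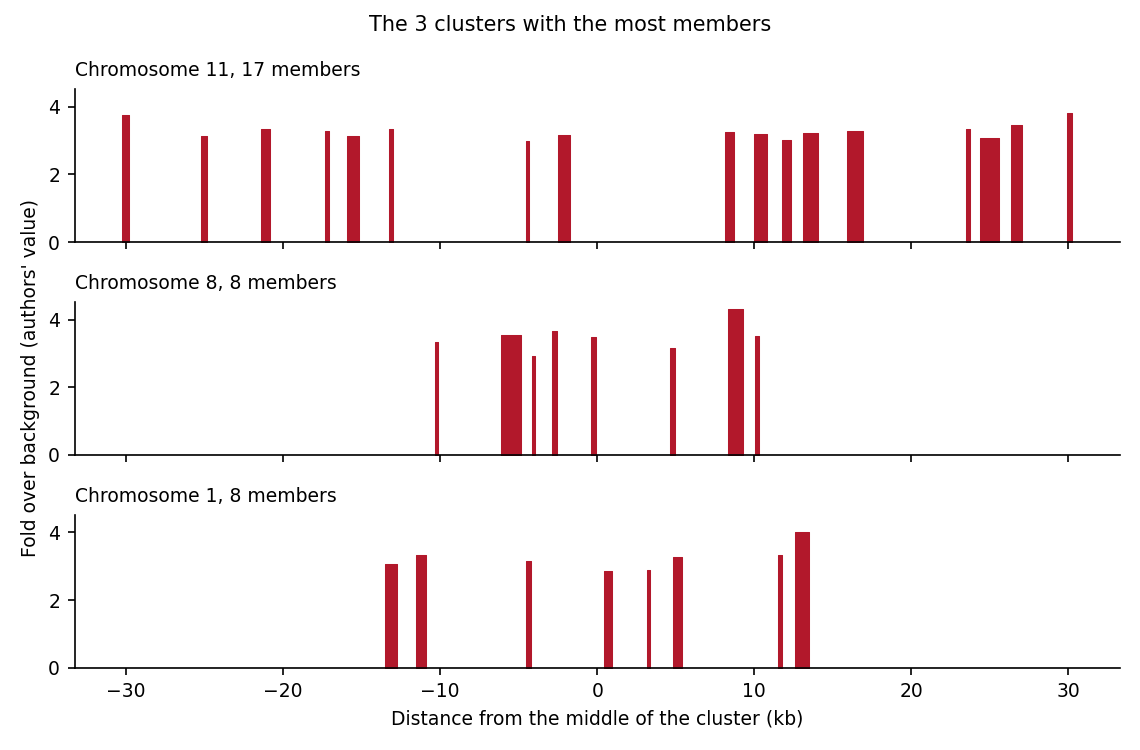
The 3 clusters ranked first by number of members and then by summed −log10 q, drawn to one scale, with distance from the middle of the cluster (kb) against the peak caller's fold over background. Each block is 1 member, as wide as the peak; the 17 members on chromosome 11 reach folds of 2.98 to 3.80, and the highest block, on chromosome 8, reaches 4.31.

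Members were narrow. Their median width was 433 bp (95% interval 418 to 449) with quartiles of 265 and 672 bp, and together they covered 2041 kb. DN-Specific peaks of the same width range under 50 kb from a Ctrl peak had a median of 479 bp (95% interval 472 to 486), and DN peaks that overlapped a Ctrl peak had 1063 bp (1043 to 1084). The narrowest width in the list, 200 bp, was shared by 478 members (12.4%), against 8.03% of all DN peaks. Only 344 members (8.95%) reached 1000 bp and 28 reached 2000 bp. The widest lay on chromosome 9 from 44034116 to 44036826 (2711 bp, fold 4.09, −log10 q 3.76), 100 kb from the nearest Ctrl peak and with no other DN peak within 100 kb. The next 4 were on chromosome 3 from 9588722 to 9591335 (2614 bp, fold 4.98) and from 22984071 to 22986677 (2607 bp, fold 3.88), on chromosome 8 from 26959246 to 26961797 (2552 bp, fold 4.13) and on chromosome 20 from 43690080 to 43692622 (2543 bp, fold 3.68). These 4 each had another member within 10 kb. The width limit left out only 3 peaks that were otherwise remote. They were 3108 bp wide on chromosome 9 from 11586129 to 11589236, 3359 bp on chromosome 2 from 20470094 to 20473452 and 3754 bp on chromosome 20 from 36627935 to 36631688.

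Width and strength did not rise together over the whole range. Members of exactly 200 bp had a median −log10 q of 1.85. It was 2.09 for wider members under 300 bp (724 peaks), 1.68 from 300 bp to under 500 bp (1008 peaks) and 1.69 from 500 bp to under 1000 bp (1289 peaks). It was 2.41 from 1000 bp to under 2000 bp (316 peaks) and 3.12 for the 28 members of 2000 bp or more. The narrowest members were therefore not the weakest ones. The 447 members at the lowest listed fold, 2.87, had a median width of 473 bp.

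The strength rank of each member was its percentile by −log10 q among all 34889 DN peaks. The median rank of members was 40.3, against 36.8 for DN-Specific peaks under 50 kb from a Ctrl peak and 81.0 for DN peaks that overlapped a Ctrl peak. Members thus ranked low in the list, but not below the DN-Specific peaks that lie nearer to Ctrl peaks. By width the order differed, with a median rank of 35.7 for members and 39.7 for the nearer DN-Specific peaks. The weakest 10% of the list held 552 members (14.4%, 95% interval 13.3 to 15.5), and the strongest 10% held 64 (1.67%, 95% interval 1.28 to 2.12). Members were thus rare at the top of the list and more common at its lower end. Of the nearer DN-Specific peaks, 1.07% lay in the strongest 10%, which is below the interval of members. At the lower end the 2 classes were closer, with 10.8% of the nearer peaks under percentile 5, against 11.6% of members there. A −log10 q of at least 4 was reached by 276 members, or 7.18% (95% interval 6.39 to 8.04), against 20% of all DN peaks. Among remote Ctrl-Specific peaks it was reached by 7, or 0.945% (95% interval 0.381 to 1.94), against 10.2% of all Ctrl peaks. The q-values were set within each list, so this level is not the same cut in DN and Ctrl. A DN member with a fold of 4.46 had a −log10 q of 4.62, and a remote Ctrl-Specific peak with a fold of 4.83 had 4.18. With distance, the members' share was 7.55% from 50 to 100 kb, 6.86% from 100 to 200 kb and 6.07% beyond that. Among DN-Specific peaks nearer to Ctrl peaks this share was 3.63% under 1 kb, 3.76% from 1 to 10 kb and 5.995% from 10 to 50 kb. The share was thus higher for members than within 10 kb of a Ctrl peak, while the intervals of members and of the band from 10 to 50 kb (5.48 to 6.54) overlap slightly.

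**Figure D4:**
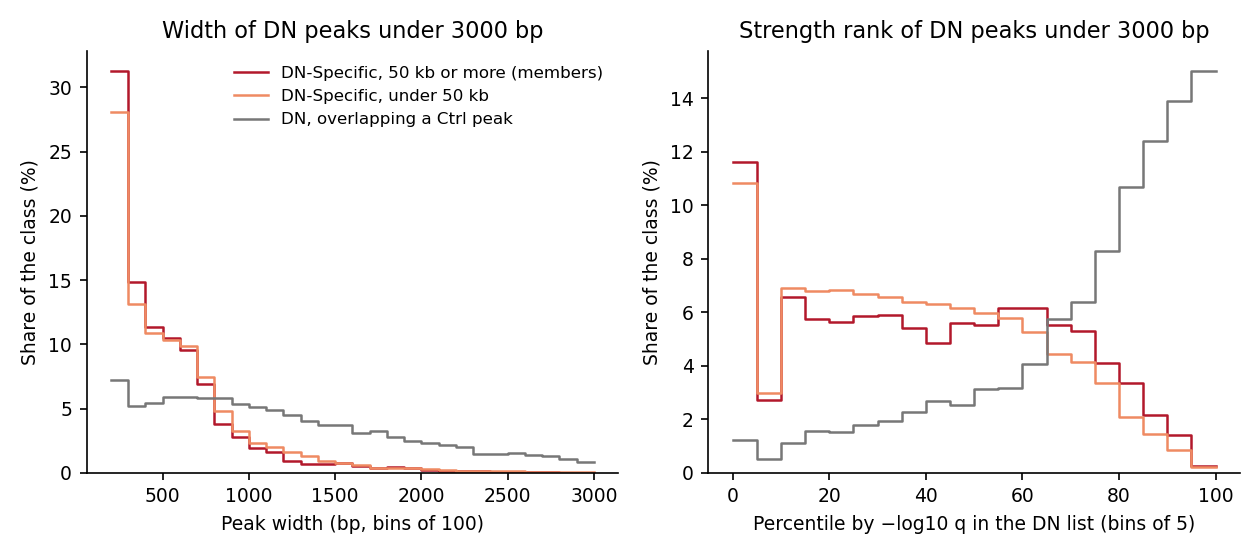
Width (bp, bins of 100) and percentile by −log10 q in the DN list (bins of 5) for DN peaks under 3000 bp, as a share of each class. Red lines are members, orange lines DN-Specific peaks under 50 kb from a Ctrl peak and grey lines DN peaks that overlap a Ctrl peak; members lie close to the other DN-Specific peaks, with medians of 433 and 479 bp, and far from the overlapping peaks, with a median of 1063 bp.

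Among DN-Specific peaks under 50 kb from a Ctrl peak, the fold reached 7.64 and the −log10 q 12.9. The strongest members lay below these values. The first of them by −log10 q lay on chromosome 9 from 32073728 to 32074758, 1031 bp wide, with a fold of 7.27, a −log10 q of 11.9 and a depth of 19.3 fragments. It sat 86.2 kb from the nearest Ctrl peak and 2.66 kb from another member. Second was chromosome 12 from 35046748 to 35047339, with a fold of 7.02 and a −log10 q of 11.4, in a stretch of 111 kb between Ctrl peaks and 0.909 kb from another member. These were the only 2 members with a −log10 q of at least 10. Their percentiles in the DN list were 98.9 and 98.6, whereas the strongest remote Ctrl-Specific peak, on chromosome 10 from 11493007 to 11493433, had a fold of 4.97 and a −log10 q of 4.49. The −log10 q values of the 2 lists are not on one scale.

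The other 8 of the 10 strongest had a −log10 q of 7.88 to 9.79. They lay on chromosome 2 from 37683748 to 37684630 (fold 6.50), chromosome 24 from 12980815 to 12981430 (fold 6.35), chromosome 6 from 2627073 to 2627464 (fold 6.41), chromosome 11 from 17984193 to 17984570 (fold 6.35), chromosome 9 from 30053756 to 30054203 (fold 6.10), chromosome 24 from 32024959 to 32025528 (fold 5.95), chromosome 9 from 903654 to 904186 (fold 5.71) and chromosome 25 from 17847113 to 17847492 (fold 5.87). The 10 were 378 to 1031 bp wide, so none was at the narrowest width. Of these, 7 belonged to a cluster and 3 were isolated, and 3 lay on chromosome 9. The peak on chromosome 24 from 12980815 belonged to a cluster of 5 in a stretch of 1312 kb without a Ctrl peak, 149 kb from the nearest. The isolated peak on chromosome 24 from 32024959 had no other DN peak within 59 kb.

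Finally, members were counted by chromosome. Every chromosome held some, from 50 on the part of chromosome 4 searched to 215 each on chromosomes 2 and 5, with a median of 161. Per Mb of chromosome, the density over all was 2.97. Chromosome 22 was the richest, with 193 members and 4.93 per Mb (95% Poisson interval 4.26 to 5.68), followed by chromosome 11 with 182 members and 4.00 per Mb (3.44 to 4.63), chromosome 2 with 3.61 per Mb (3.14 to 4.13) and chromosome 8 with 3.59 per Mb (3.10 to 4.13). The intervals of these 4 lay above the overall density. The lowest were chromosome 4 with 1.85 per Mb (1.37 to 2.44), chromosome 14 with 2.03 (1.67 to 2.46) and chromosome 18 with 2.08 (1.701 to 2.51).

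Chromosome 22 also had the highest density of peaks in both lists. It had 21.5 Ctrl peaks and 43.1 DN peaks per Mb, more than any other chromosome, and 42.4% of its length was remote from Ctrl peaks, against 45.0% over all. Per Mb of that remote sequence it held 11.6 members (95% interval 10.1 to 13.4), against 6.60 over all. Its 4 fullest stretches held 57 of its 193 members, and without them it held 9.32 per remote Mb. It also had the highest share of clustered members, at 52.8% (95% interval 45.6 to 60.1). Chromosome 14 had the lowest values of both kinds, with 3.92 members per remote Mb and 14.02% of members in clusters (95% interval 8.06 to 22.1).

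As a share of a chromosome's own DN peaks, the order was different. Chromosome 9 led with 192 of 1045 DN peaks, or 18.4% (95% interval 16.1 to 20.9), followed by chromosome 24 with 15.5% (13.1 to 18.2) and chromosome 11 with 15.4% (13.4 to 17.6). Chromosome 22 had 11.4%, near the share of 11.3% over all chromosome parts searched, which leaves out peaks on the excluded part of chromosome 4. Chromosomes 24 and 9 had the fewest Ctrl peaks per Mb, 9.25 and 9.59, and 52.8% and 50.4% of their length was remote from Ctrl peaks. Per remote Mb, chromosome 11 held 8.11 members (6.98 to 9.38), below chromosomes 2 (8.69), 8 (8.36) and 16 (8.14) as well as 22. On this measure 5 chromosomes had an interval above the overall value. The 4 fullest stretches of chromosome 11 held 46 of its 182 members, and without them it held 6.66 per remote Mb. The 6.60 over all has no stretches removed, so the 2 values are not alike. The same removal lowered chromosome 9 from 6.75 to 5.95 and chromosome 14 from 3.92 to 3.49. With all stretches counted, the intervals of chromosome 11 lay above the overall value on each of the 3 measures. Those of chromosome 22 did so per Mb and per remote Mb only, and that of chromosome 9 only as a share of its DN peaks. Members within 2 Mb of a chromosome end numbered 252 (6.56%). Their density was 8.23 per Mb of remote sequence (95% interval 7.24 to 9.31), against 6.51 elsewhere.

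**Figure D5:**
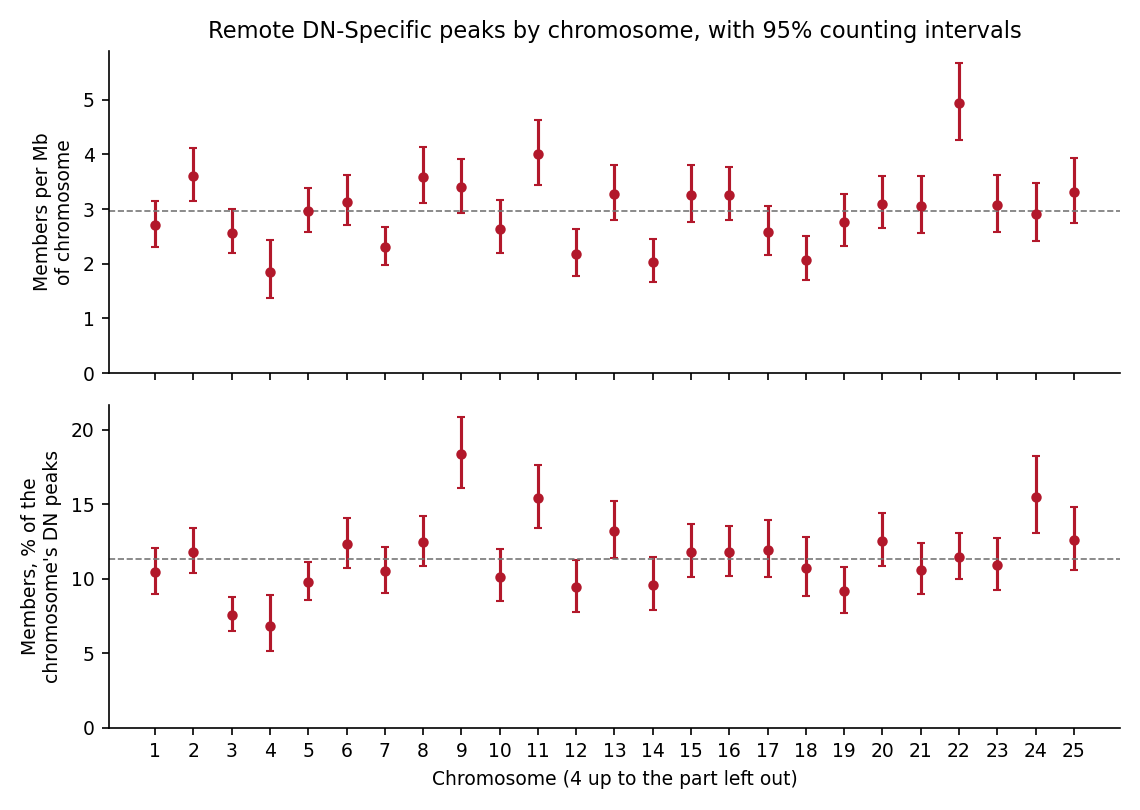
Members by chromosome, as a number per Mb of chromosome (top) and as a percentage of the chromosome's DN peaks (bottom), with 95% counting intervals and the value over all chromosomes as a dashed line. Chromosome 22 stands highest in the top panel at 4.93 per Mb, and chromosome 9 in the bottom panel at 18.4%.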

How the data were processed

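H3K4me3 ChIP-seq peak lists of 1 DN and 1 Ctrl library were used. Reads had been trimmed by the authors (Trimmomatic 0.39), mapped uniquely to GRCz11 (STAR 2.7.8a), cleared of duplicates (Picard 2.25.0) and reduced to the same number of read pairs in each condition, and broad peaks were called in each condition by MACS2 at a q-value setting of 0.0001 with neither a model nor a local background. The listed −log10 q went down to 1.31 for members and to 1.20 for remote Ctrl-Specific peaks, which is weaker than that setting. Only 7.18% of members and 20.0% of all DN peaks had a listed −log10 q at its level. The listed value is taken here as a mean over the peak. A peak listed below the level can thus hold a core above it. The 447 members at the lowest listed fold had a −log10 q of 1.31 and a mean depth of 7 fragments, the lowest in DN. Why the lists hold peaks weaker than the setting was not tested. Whether the input entered the call is not given in the sources used here. A call with no local background can list regions where chromatin is recovered well whatever its marks. The lists give no read counts, so counting error on a single peak was not computed.

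Each deposited fold is the ratio of a peak's signal to a background common to the whole genome, averaged over the peak. For each peak the authors' files further give −log10 p (p-value) and −log10 q (q-value), also taken as means over the peak, and a score made from −log10 q. All remaining deposited values are starts and ends.

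An overlap of 1 bp sufficed, gaps are the bases between 2 peaks, positions are 1-based, and the last peak listed on a chromosome set its end. The same members were found with bedtools 2.31.1. Fragment depth was solved, under the formula of the peak caller and Poisson p-values, from the weakest peaks of each list. This gave a background of 1.79 fragments in DN and, with a scaling of the depth by 0.914 that was inferred from the values and not stated in the sources, 1.64 in Ctrl. A mean over a broad peak is not the depth at which it was called. The member rule and the depth estimate were each run on simulated lists. The lists for the depth estimate were simulated with the same formula. That run therefore cannot show whether the formula, or the scaling inferred for Ctrl, holds for the deposited lists. Shares have exact binomial (Clopper-Pearson) and densities exact Poisson intervals at 95%, and medians have order-statistic intervals. They measure counting error alone, because peaks of a library do not replicate a condition. They also treat peaks as independent, which clustered members are not.

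Members, classes and lists were chosen with earlier results of these data known. Regions named are the 10 strongest by −log10 q, the 5 widest, the 3 farthest, the 3 largest clusters and the peaks beside the limits. The fullest and longest stretches, the clusters on chromosome 17 and chromosome 6, the strongest remote Ctrl-Specific peak and the chromosomes named were picked after their values were seen. Genes and sequence at the peaks were not analysed here, since no GRCz11 annotation or genome was used. Alternatives were distance limits of 25 and 100 kb, a −log10 q of at least 4, no width limit, the whole of chromosome 4, merging of peaks under 1 kb apart, a shortened DN list, other cluster distances and other ranks. The minimum depth of 8 fragments was added after seeing the data. Software was Python 3.11.15 with scipy 1.17.1, pandas 2.3.3, numpy 2.4.6 and, for plots, matplotlib 3.10.9.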

Additional observations from a re-analysis of the deposited data

Results flagged for a closer look

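The part of chromosome 4 that the rule leaves out, from 27000000 on, also holds peaks listed in 1 group only. There 133 DN-Specific peaks lay 50 kb or more from a Ctrl peak and 121 Ctrl-Specific peaks lay that far from a DN peak, a ratio of 1.099 (95% interval 0.853 to 1.42, counting error only), against 5.19 (4.79 to 5.62) in the rest of the genome. The difference between the 2 ratios was not tested across libraries.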

How the results depend on the processing

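With no replicates, a number of peaks is taken as changed beyond a factor of 1.5, and any other value once it left its 95% counting interval. Of 49 alternative values for 8 results, 33 changed and 16 did not. Most changes follow from the filter itself.

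The number of remote DN-Specific peaks was 6954 at 25 kb, 1551 at 100 kb, 276 with a −log10 q of 4 or more, 1512 with the DN list shortened to the number of Ctrl peaks and 1789 with at least 8 fragments on average. The share of DN peaks was 19.9%, 4.45%, 3.95% of the DN peaks at that −log10 q and 9.15% of those at that depth. The number of remote Ctrl-Specific peaks was 1373 at 25 kb, 296 at 100 kb, 7 with a −log10 q of 4 or more on the Ctrl list's own scale and 1374 at 8 fragments in both lists. The clustered share was 39.1% at 25 kb, 33.8% at 100 kb, 3.99% with a −log10 q of 4 or more, 32.2% after merging peaks under 1 kb apart, 28.3% and 46.9% for clusters at 5 and 20 kb, 38.7% when any DN peak counted as a neighbour and 24.8% at 8 fragments. The median width was 588.5 bp with a −log10 q of 4 or more and 411 bp at 8 fragments, and the median rank by width was 35.7.

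Chromosome 22 had the highest density under every alternative tried for it, with 7.51 per Mb at 25 kb, 2.35 at 100 kb, 0.358 with a −log10 q of 4 or more, 2.249 at 8 fragments and 11.6 per Mb of remote sequence. The density in remote sequence was 8.45 per Mb at 25 kb, 4.81 at 100 kb, 0.474 with a −log10 q of 4 or more and 3.07 at 8 fragments.

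No paired analysis was possible because only 1 H3K4me3 library was made per group, and leaving out a replicate was not possible for the same reason. The lists cannot show whether a site had fragments just under the threshold in the other group, and depths below 7 fragments in DN or 8 in Ctrl are not listed.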
